A study of Mus musculus with 4 samples.

Results

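Ephrins, Eph receptors, semaphorins, plexins and neuropilins were examined as 1 group of cell guidance genes in stem cells sorted from mouse skin squamous cell carcinoma (SCC). Members were chosen by gene symbol: ephrin-A and ephrin-B ligands, EphA and EphB receptors, semaphorins of classes 3 to 7, plexins A to D, and neuropilins 1 and 2. The rule itself used no measured value, but these families were chosen with earlier results of these data known. The rule matched 56 genes of the 31729 listed, of which 52 were above 0 in at least 1 library. These comprised 8 ephrins, 13 Eph receptors, 20 semaphorins, 9 plexins and 2 neuropilins, while Epha6 and the antisense genes Plxna4os1, Plxna4os2 and Plxna4os3 were listed at 0 in every library.

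The mCherry Pos cells, in which a fluorescent reporter of TGF-beta signaling was on, were compared with mCherry Neg cells, in which the reporter was off. Each group had 2 libraries, 1 from each of experiments 1 and 2. All cells came from primary skin SCCs of C57BL/6 X FBV mice that carried TetO-Hras together with LV-rtTA3-TGF-beta reporter, so the mCherry Neg cells carried the same alleles and the same reporter as the mCherry Pos cells. Before the split by mCherry, lineage-positive cells had been removed and cells had been selected on integrin alpha6 and CD44. No age and no number of pooled animals is given in the sources used here.

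Ephrins are membrane-bound ligands: ephrin-A proteins are held by a lipid anchor and ephrin-B proteins span the membrane. They bind Eph receptor tyrosine kinases on a neighbouring cell, and signals can run into both cells, which in epithelia governs cell sorting, adhesion and boundaries. Semaphorins are secreted (class 3 in vertebrates) or membrane-attached ligands of plexins, receptors whose cytoplasmic part acts on small GTPases and so on the cytoskeleton. Most class 3 semaphorins need a neuropilin as co-receptor, and neuropilins also bind vascular endothelial growth factors. Both systems were first described in axon guidance and both also operate in the epidermis and in its tumours.

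Levels are FPKM (sequenced fragments per unit of transcript length and of library size), so levels of different genes can be compared per length. Sequencing depth, as coverage divided by FPKM, was 3.55 and 3.29 aligned gigabases in mCherry Pos, and 3.13 and 3.75 aligned gigabases in mCherry Neg, experiments 1 and 2 in that order, as in every pair of values that follows. The sorted cell type was checked against 12 keratinocyte markers, of which 9 had a value and the other 3, keratins, were not analysed here. The 9 include Itga6 and Cd44, whose products the cells were selected on, so these cannot serve as a check of the cell type. The summed level of the 9 was 3547 and 3546 FPKM in mCherry Pos, against 3065 and 3172 FPKM in mCherry Neg. Perp held most of that sum, and the other 8 summed to 827 and 844 FPKM in mCherry Pos, against 1522 and 1771 FPKM in mCherry Neg, with 6 of the 8 lower in both mCherry Pos libraries than in either mCherry Neg library. Markers of differentiated keratinocytes summed to 9301 and 9092 FPKM in mCherry Pos, against 1959 and 1507 FPKM in mCherry Neg. Sprr1a and Sprr1b held most of the mCherry Pos sums. Of 10 tested markers of this list, 8 were higher in both mCherry Pos libraries than in either mCherry Neg library. Krt10 and Lor overlapped, as did Flg, which was not tested. The part of this shift in the differences described here was not tested. In limma, 607 of 11969 genes (5.07%) had an adjusted p below 0.05, 305 higher (2.55%) and 302 lower (2.52%) in mCherry Pos. Differences are log2(FPKM + 1) in mCherry Pos minus mCherry Neg, a scale that understates the change of weakly expressed genes. The median difference of all tested genes was -0.18, and it was 0.01 after median-of-ratios scaling, so a member near -0.18 stood at the middle of the transcriptome. With 2 libraries a group, and labels that do not say whether the experiments used separate animals, the p-values reflect no more than how far these libraries differ among themselves.

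Of the 52 expressed members, 15 had a mean of at least 10 FPKM over the 4 libraries, 16 lay between 1 and 10 FPKM, and 21 were below 1 FPKM. The test took genes that reached 1 FPKM in 2 or more libraries, which 30 members did: 7 ephrins, 8 Eph receptors, 9 semaphorins, 5 plexins and 1 neuropilin. Of these 30, 25 reached 1 FPKM in all 4 libraries, and 2 (Efna2 and Sema3d) reached the limit only through mCherry Neg, so that they had to differ. The other 22 were not tested, and the highest single value among them was 3.30 FPKM (Sema3b). By mean over the 4 libraries, the best expressed member was the receptor gene Plxnb2 (52.1 FPKM), followed by the ligand gene Efna1 (49.5 FPKM). In experiment 2 their levels in mCherry Pos were within 1 FPKM of each other, and Efna1 was the higher one in both groups. With only the transcripts named by ID, Efna1 was higher than Plxnb2 in all 4 libraries.

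**Figure D1:**
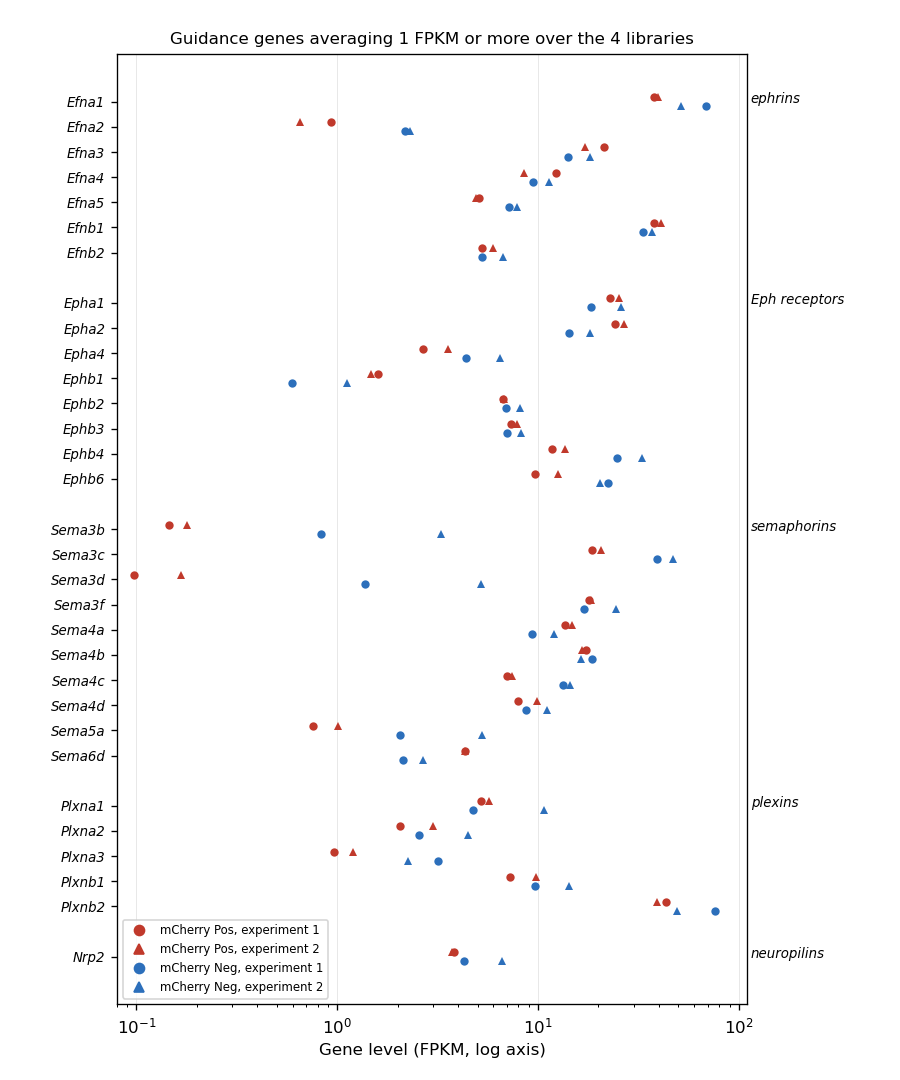
Level of the members that average at least 1 FPKM, in each library, in FPKM on a log axis, with mCherry Pos in red and mCherry Neg in blue, circles for experiment 1 and triangles for experiment 2. Sema3c shows 18.7 and 20.5 FPKM in mCherry Pos, well apart from 39.0 and 47.3 FPKM in mCherry Neg, while Ephb3 and Sema4b show interleaved points.

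Sema3c was the 1 member that passed the test, and it fell in mCherry Pos cells. That is 1 of 30 tested members (3.33%), against 5.07% of all genes. With experiment as a block, 3 of 30 (10%) passed, namely Sema3c, Sema4c and Ephb4, all lower in mCherry Pos, against 10.4% of all genes (6.36% lower and 4.09% higher). Leaving out genes listed at 0 in any library gave 6 of 30 (20%), all lower, against 10.5% of all genes (6.46% lower and 4.05% higher), and adding the block to that gave 13 of 30 (43.3%), against 27.3%. In that last setting 11 members were lower and 2, Epha2 and Sema6d, were higher, against 19.4% and 7.99% of all genes. Both counts include Efna2 and Sema3d, which the filter fixed as lower, and among the other 28 members they were 4 (14.3%) and 11 (39.3%). The mCherry Pos libraries were both below the mCherry Neg libraries for 14 of 30 members (46.7%), against 42.6% of all genes, and both above for 5 of 30 (16.7%), against 15.3%. A difference of at least 2-fold the same way in both experiments was found for 3 members (10%), against 3.08% of all genes, and these were Sema3c, Sema3d and Ephb4, each lower in mCherry Pos. Without Efna2 and Sema3d that count was 2 of 28 (7.14%), and both mCherry Pos libraries were the lower ones for 12 of 28 (42.9%). No member was higher by that much in both experiments, against 2.58% of all genes. At an unadjusted p below 0.05, 10 members were lower (33.3%) and 2 higher (6.67%), against 18% and 7.59% of all genes, and without Efna2 and Sema3d 8 of 28 were lower (28.6%). The test was applied to few libraries, so a member that missed the threshold is not shown to be unchanged. On simulated data of this size it recovered 0% of 2-fold and 0% to 47% of 4-fold changes. Only 200 of 11969 genes were changed there, against 607 called in these data, which makes the adjustment stricter. Those rates therefore do not measure how many changes were missed here.

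**Figure D2:**
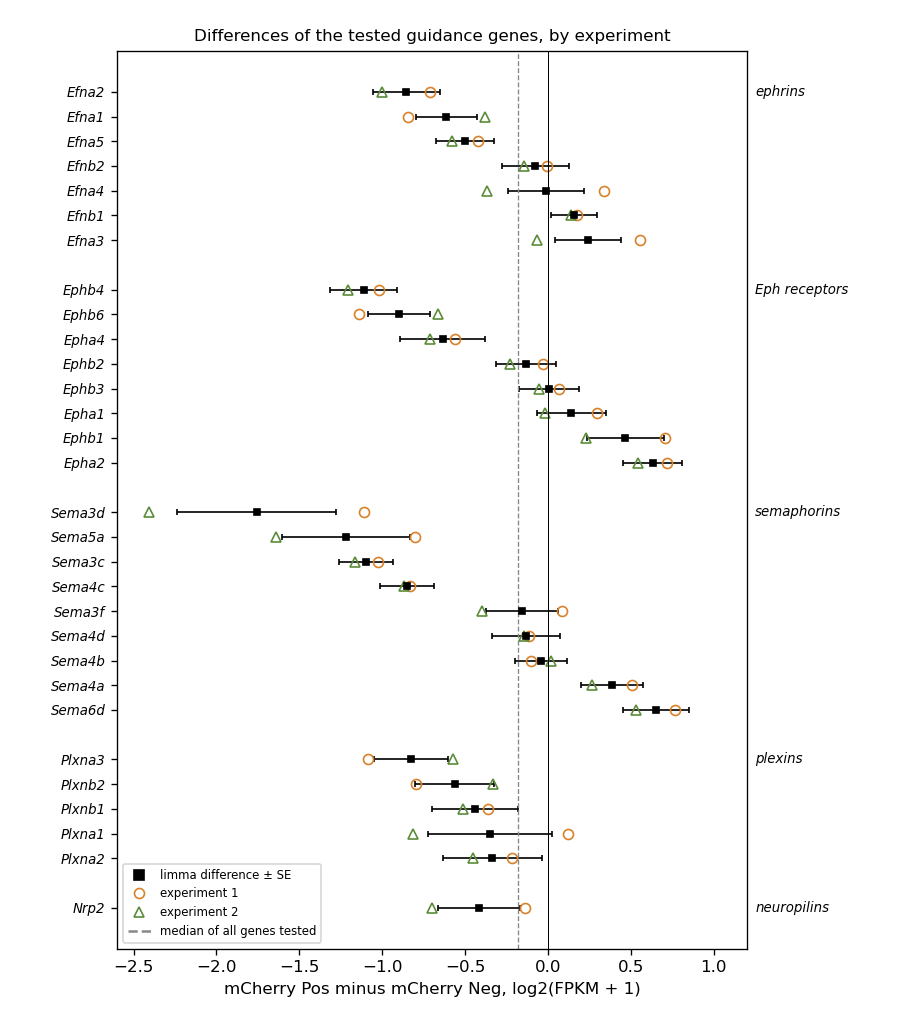
Difference in log2(FPKM + 1), mCherry Pos minus mCherry Neg, for the 30 tested members grouped by family, with the standard error from limma and the difference within each experiment. The dashed line marks the median of all genes, -0.18, and Sema3c at -1.10 is the 1 member with an adjusted p below 0.05.

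Among the ligands of Eph receptors, differences ran from -0.86 (Efna2) to 0.24 (Efna3), and those of ephrin-A genes spanned those of ephrin-B genes. The 5 tested ephrin-A genes had a median difference of -0.50, and the 2 tested ephrin-B genes one of 0.04, against -0.18 for all genes. No ephrin passed the test in limma, with or without the experiment as a block, and 3 had an unadjusted p below 0.05, all lower. Efna1, the gene of a ligand that binds EphA2, had 37.9 and 39.5 FPKM in mCherry Pos, against 68.8 and 51.7 FPKM in mCherry Neg. The groups did not overlap and the mCherry Neg library of experiment 1 was the highest (difference -0.61 ± 0.18 (SE, n = 2 a group), adjusted p = 0.127 in limma). Efnb1, an X-linked ephrin-B gene known for its part in cell sorting, had 38.0 and 40.8 FPKM in mCherry Pos, against 33.5 and 36.9 FPKM in mCherry Neg. Both mCherry Pos values were the higher ones, by a margin that did not pass the test (0.16 ± 0.14 (SE, n = 2 a group), adjusted p = 0.523 in limma).

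The other ephrins were less abundant. Efna5 had 5.08 and 4.94 FPKM in mCherry Pos, against 7.16 and 7.86 FPKM in mCherry Neg, without overlap, and 93.6% of its signal was placed in the gene by exon overlap, 53.9% on transcripts assembled from the reads and 39.7% on an Ensembl transcript that could not be named by its ID. The Efna5 signal named by ID ran the other way, with 0.828 and 0.764 FPKM in mCherry Pos and a listed 0 in both mCherry Neg libraries. Efna2 had 0.932 and 0.649 FPKM in mCherry Pos, against 2.16 and 2.30 FPKM in mCherry Neg (difference -0.86 ± 0.20 (SE, n = 2 a group), adjusted p = 0.0863 in limma). Efna3, Efna4 and Efnb2 had overlapping groups, with differences of 0.24, -0.01 and -0.08. Efnb3 stayed at or below 0.133 FPKM in every library. Efna1, Efna3 and Efna4 lie beside each other on chromosome 3, with gaps of 32.8 kb and 10.4 kb in mm9, and their ratios of mCherry Pos to mCherry Neg mean FPKM were 0.642, 1.19 and 1. Thus 1 gene of these neighbours had separated groups and the other 2 had overlapping ones.

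Of the 8 tested Eph receptors none passed the test in limma, 1 (Ephb4) passed with experiment as a block, and at an unadjusted p below 0.05 there were 2 lower and 1 higher. EphA genes summed to 49.7 and 56.3 FPKM in mCherry Pos, against 37.2 and 50.5 FPKM in mCherry Neg, which overlap, whereas EphB genes summed to 37.0 and 42.4 FPKM in mCherry Pos, against 61.5 and 70.8 FPKM in mCherry Neg, which do not. In mCherry Neg of experiment 1, assembled transcripts held 10.8 (Ephb4), 10.4 (Ephb6) and 2.24 FPKM (Ephb2) of the EphB sum. Without them that sum falls between the mCherry Pos sums, so the separation of the EphB sums rests on them. Epha1 had the highest mean level of the family and overlapping groups, with 22.8 and 25.5 FPKM in mCherry Pos, against 18.4 and 25.8 FPKM in mCherry Neg (difference 0.14 ± 0.21 (SE, n = 2 a group), adjusted p = 0.719 in limma). Epha2, the gene of a receptor abundant in keratinocytes, was next, with 24.2 and 26.9 FPKM in mCherry Pos, against 14.3 and 18.1 FPKM in mCherry Neg. Its groups did not overlap and mCherry Pos was the higher one in both experiments, the opposite order to its ligand gene Efna1 (difference 0.63 ± 0.18 (SE, n = 2 a group), adjusted p = 0.117 in limma). Whether the differences of receptor and ligand genes are related was not tested.

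Ephb4, which encodes the receptor of ephrin-B2, had 11.7 and 13.6 FPKM in mCherry Pos, against 24.7 and 32.8 FPKM in mCherry Neg. The groups were far apart, with differences of -1.02 in experiment 1 and -1.21 in experiment 2, each more than 2-fold. The adjusted p was 0.0518 in limma and 0.0231 with experiment as a block (difference -1.11 ± 0.20 (SE, n = 2 a group)). The gene lies at chr5:137791337-137819897 in mm9. Part of the mCherry Neg value of experiment 1 (10.8 FPKM) belongs to a transcript of 2148 bases assembled from the reads, and without assembled transcripts that library had 13.9 FPKM, the groups still did not overlap, and the difference was -0.72 with an adjusted p of 0.473 in limma. The ligand gene Efnb2 had 5.25 and 5.97 FPKM in mCherry Pos, against 5.27 and 6.71 FPKM in mCherry Neg, with overlap.

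Ephb6, whose product lacks kinase activity, had 9.62 and 12.6 FPKM in mCherry Pos, against 22.4 and 20.5 FPKM in mCherry Neg. Both mCherry Neg libraries were higher than both mCherry Pos libraries (difference -0.90 ± 0.19 (SE, n = 2 a group), adjusted p = 0.0687 in limma). Of its mCherry Neg value in experiment 1, 10.4 FPKM came from an assembled transcript of 1221 bases, and with only the transcripts named by ID the groups overlapped, with 9.62 and 12.6 FPKM in mCherry Pos against 11.9 and 20.5 FPKM in mCherry Neg, a difference of -0.47. Ephb2 and Ephb3, known from boundary formation in the intestine, lay between 6.72 and 8.23 FPKM in all libraries, with differences of -0.13 and 0.01. Epha4 had 2.66 and 3.57 FPKM in mCherry Pos, against 4.40 and 6.48 FPKM in mCherry Neg, and Ephb1 had 1.60 and 1.48 FPKM in mCherry Pos, against 0.594 and 1.11 FPKM in mCherry Neg. Neither group pair overlapped, in opposite directions, and neither passed the test. Epha3, Epha5, Epha7, Epha8 and Epha10 had no value above 0.317 FPKM.

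In the semaphorin family 1 of 9 tested genes passed the test (lower in mCherry Pos), or 2 of 9 with experiment as a block, both lower. Sema3c, a secreted class 3 semaphorin that signals through neuropilins and plexins, had 18.7 and 20.5 FPKM in mCherry Pos, against 39.0 and 47.3 FPKM in mCherry Neg. The groups were far apart, and both mCherry Pos values lay below 21 FPKM. The mean was 19.6 ± 1.32 FPKM in mCherry Pos and 43.2 ± 5.83 FPKM in mCherry Neg (SD, n = 2 each), a ratio of 0.454. The difference was -1.10 ± 0.16 (SE, n = 2 a group), with an adjusted p of 0.0377 in limma, or 0.0200 with experiment as a block. In bulk RNA, fewer cells of a type that express a gene and less of its RNA per cell cannot be told apart. The gene (ENSMUSG00000028780) lies on the plus strand at chr5:17080099-17236086 in mm9. Transcript ENSMUST00000030568 held 93.8% of its signal and was 31.2 FPKM in the mCherry Neg library of experiment 1, where a second annotated transcript held 7.83 FPKM.

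The call for Sema3c rested on all 4 libraries. Its adjusted p in limma was 0.213 and 0.196 without the mCherry Pos library of experiment 1 or 2, and 0.073 and 0.114 without the mCherry Neg library of experiment 1 or 2, while the difference stayed between -1.23 and -0.96. The call was also lost without a filter on low values (adjusted p = 0.0914), when only transcripts named by ID were kept (0.0967) and when a gene was read from its most abundant transcript (0.213), and over all alternatives the adjusted p in limma ranged from 0.000238 to 0.213. Without the filter, and with only the transcripts named by ID, the Sema3c values and its difference of -1.10 were unchanged. In those settings only the fit and the adjustment over all genes differed. After median-of-ratios scaling the difference was -0.89 with an adjusted p of 0.0443. The 12 fibroblast markers summed to 19.5 and 43.8 FPKM in mCherry Pos, against 136 and 271 FPKM in mCherry Neg. Of that sum Postn had 4.78 and 11.0 FPKM in mCherry Pos, against 89.7 and 191 FPKM in mCherry Neg, and Thy1 had 0.521 and 1.80 FPKM in mCherry Pos, against 15.2 and 32.5 FPKM in mCherry Neg. The other 10 summed to 14.2 and 31.0 FPKM in mCherry Pos, against 30.8 and 48.1 FPKM in mCherry Neg, with overlap, and of them 5 had both mCherry Pos libraries lower, 4 overlapped and 1 (Twist2) was higher. Their part in the Sema3c difference was not tested.

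Promoters of 3 semaphorins are shown because Sema3c passed the test, Sema4c passed it with the block, and Sema3d was at least 2-fold lower in both experiments. The sequences are RefSeq promoters of build GRCm38.p6, the 250 bases before the transcription start, read along the gene's strand. Capitals mark a motif match. The 3 windows are chr5:17574566-17574815 on the plus strand for Sema3c, chr1:36558382-36558631 on the minus strand for 1 of the 2 Sema4c promoters (the other held no match), and chr5:12382916-12383165 on the plus strand for Sema3d.
Sema3c: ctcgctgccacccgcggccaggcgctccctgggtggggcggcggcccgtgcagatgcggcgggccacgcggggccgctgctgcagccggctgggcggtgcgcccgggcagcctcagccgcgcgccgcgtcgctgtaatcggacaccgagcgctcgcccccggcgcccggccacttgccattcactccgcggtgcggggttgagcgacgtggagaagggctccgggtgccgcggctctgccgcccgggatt
Sema4c: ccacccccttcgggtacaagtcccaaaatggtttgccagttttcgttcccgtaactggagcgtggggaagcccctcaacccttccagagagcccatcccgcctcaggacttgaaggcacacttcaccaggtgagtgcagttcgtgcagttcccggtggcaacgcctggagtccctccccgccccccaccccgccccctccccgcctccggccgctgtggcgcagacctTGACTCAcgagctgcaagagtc
Sema3d: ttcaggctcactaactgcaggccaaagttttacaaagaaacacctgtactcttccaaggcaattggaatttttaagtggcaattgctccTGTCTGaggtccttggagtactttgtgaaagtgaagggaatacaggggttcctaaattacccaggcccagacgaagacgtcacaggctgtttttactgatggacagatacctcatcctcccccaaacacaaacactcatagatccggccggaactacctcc
The Sema3c window is 78.4% G and C and held none of the motifs searched. The Sema4c window (64.4% G and C) held the AP-1 motif TGAGTCA on the other strand, 22 bases before the start, and the Sema3d window (46.8%) held the Smad motif CAGACA on the other strand, 161 bases before the start.

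Motifs were searched on both strands over 300 bases, which add the 50 bases after the start, in the 28 of 30 tested members that have a RefSeq promoter. The Smad motif CAGACA was present in 7 of the 28 (25%), against 23.6% of the 27025 genes with a promoter. Those were Efna3, Epha1, Plxna2, Sema3d, Sema4a, Sema4d and Sema6d, of which Sema4a and Sema6d had both mCherry Pos libraries above mCherry Neg and Sema3d had both below. TGAGTCA was found in 1 of 28 (3.57%), against 5.95% of genes. The palindromic Smad motif GTCTAGAC and the grainyhead-like motif AACCGGTT had 0 matches in 28, against 0.248% and 0.174% of genes. Both Smad motifs hold the letters AGAC. A match describes these letters only, not binding.

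The remaining class 3 genes were mostly weak. Sema3f, whose product binds neuropilin-2, was the exception, with 18.04 and 18.42 FPKM in mCherry Pos, against 16.9 and 24.6 FPKM in mCherry Neg, with overlap (difference -0.16 ± 0.22 (SE, n = 2 a group), adjusted p = 0.693 in limma). Its difference was 0.05 after median-of-ratios scaling and 0.32 with only the transcripts named by ID. Sema3d had 0.0973 and 0.167 FPKM in mCherry Pos, against 1.37 and 5.18 FPKM in mCherry Neg, with the mCherry Neg library of experiment 2 far above the rest. The difference was -1.76 ± 0.48 (SE, n = 2 a group) and the adjusted p was 0.110 in limma. Sema3b and Sema3e were not tested and had the same order: Sema3b had 0.145 and 0.179 FPKM in mCherry Pos, against 0.826 and 3.30 FPKM in mCherry Neg, and Sema3e, a ligand of plexin-D1, had 0.145 and 0.230 FPKM in mCherry Pos, against 0.622 and 0.863 FPKM in mCherry Neg. Sema3b and Sema3f are 72.3 kb apart on chromosome 9, with ratios of 0.0787 and 0.878.

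Class 4 semaphorins are membrane proteins, and Sema4d is the ligand of plexin-B1 and Sema4c a ligand of plexin-B2. Sema4b, the best expressed of the class, had 17.3 and 16.5 FPKM in mCherry Pos, against 18.6 and 16.3 FPKM in mCherry Neg, with overlap (difference -0.04). Sema4c had 7.02 and 7.44 FPKM in mCherry Pos, against 13.3 and 14.4 FPKM in mCherry Neg. The groups stood clearly apart, with an adjusted p of 0.0585 in limma and 0.0442 with experiment as a block (difference -0.85 ± 0.16 (SE, n = 2 a group)). Of its signal 67.8% was placed by exon overlap, 63.2% on Ensembl transcripts that could not be named by ID and 4.59% on assembled ones. The 1 transcript named by ID had 1.62 FPKM and a listed 0 in mCherry Pos, against 7.25 and 4.69 FPKM in mCherry Neg. Sema4a had 13.7 and 14.7 FPKM in mCherry Pos, against 9.33 and 12.1 FPKM in mCherry Neg, both higher without passing the test (0.39 ± 0.19 (SE, n = 2 a group), adjusted p = 0.276 in limma). Sema4d was close to level, with 7.97 and 9.87 FPKM in mCherry Pos, against 8.73 and 11.0 FPKM in mCherry Neg. Sema4f and Sema4g had no value above 0.395 FPKM.

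Sema6d, a membrane semaphorin that binds plexin-A1, had 4.31 and 4.32 FPKM in mCherry Pos, against 2.12 and 2.68 FPKM in mCherry Neg. Both mCherry Pos libraries were higher (difference 0.65 ± 0.20 (SE, n = 2 a group), adjusted p = 0.131 in limma), but the most abundant transcript alone gave -0.67. Sema5a had 0.755 and 1.01 FPKM in mCherry Pos, against 2.06 and 5.26 FPKM in mCherry Neg, and it too was highest in the mCherry Neg library of experiment 2 (difference -1.22 ± 0.39 (SE, n = 2 a group), adjusted p = 0.140 in limma). Sema7a, a lipid-anchored semaphorin, was not tested and had 0.636 and 1.37 FPKM in mCherry Pos, against 0.275 and 0.623 FPKM in mCherry Neg. Sema5b, Sema6a, Sema6b and Sema6c stayed below 0.63 FPKM.

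**Figure D3:**
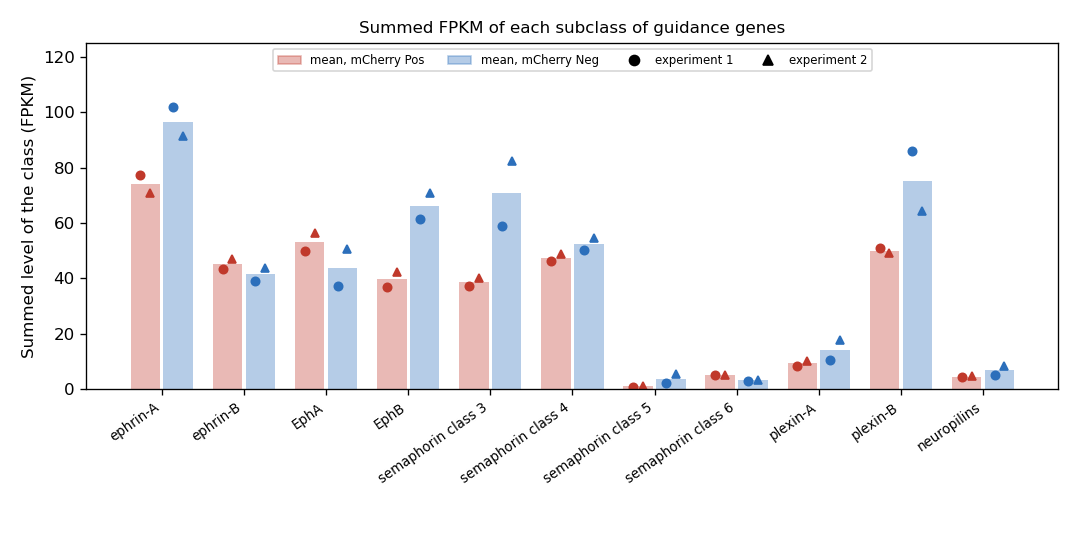
Summed FPKM of each subclass, with bars for the mean of 2 libraries (mCherry Pos left of mCherry Neg) and points for the libraries. EphB sums are 37.0 and 42.4 FPKM in mCherry Pos and 61.5 and 70.8 FPKM in mCherry Neg, and plexin-B sums are 50.8 and 48.9 FPKM in mCherry Pos and 86.0 and 64.4 FPKM in mCherry Neg. Without assembled transcripts, the EphB sum of the mCherry Neg library of experiment 1 falls between the mCherry Pos sums. In that library 38.7 FPKM of the plexin-B sum is 1 Plxnb2 transcript of 841 bases. Without it the plexin-B sum lies below both mCherry Pos sums.

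Among the plexins, the receptors of semaphorins, 4 of 5 tested genes were lower in mCherry Pos in both experiments and none was higher in both, against 54.2% lower and 20.7% higher of all genes. None of the 5 passed the test in limma, with or without experiment as a block, and 1 (Plxna3) had an unadjusted p below 0.05. Their median difference was -0.44 (-0.24 after median-of-ratios scaling), against -0.18 for all genes. Plxnb2 had 43.5 and 39.2 FPKM in mCherry Pos, against 76.3 and 49.5 FPKM in mCherry Neg. The groups did not overlap, and the mCherry Neg library of experiment 1 was far above the rest (difference -0.56 ± 0.24 (SE, n = 2 a group), adjusted p = 0.223 in limma). In that library an annotated transcript of only 841 bases carried 38.7 FPKM and it was listed at 0 in the other libraries. The most abundant transcript alone gave a difference of 0.12.

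Plxnb1, the receptor gene for Sema4d, had 7.29 and 9.75 FPKM in mCherry Pos, against 9.66 and 14.4 FPKM in mCherry Neg, with overlap (difference -0.44 ± 0.26 (SE, n = 2 a group), adjusted p = 0.351 in limma). That overlap rested on an assembled transcript of 3.16 FPKM in the mCherry Pos library of experiment 2. With only the transcripts named by ID that library had 6.58 FPKM, the groups did not overlap, and the difference was -0.69. Plxna1 and Plxna2, of the class that pairs with neuropilins, overlapped too, with differences of -0.35 and -0.34. Plxna3 had 0.968 and 1.195 FPKM in mCherry Pos, against 3.17 and 2.26 FPKM in mCherry Neg, without overlap (-0.83 ± 0.22 (SE, n = 2 a group), adjusted p = 0.109 in limma). Of its mCherry Neg value in experiment 1, 1.89 FPKM came from 1 assembled transcript, and with only the transcripts named by ID the groups overlapped, with a difference of -0.46. Nrp2, the best expressed neuropilin gene, had 3.82 and 3.72 FPKM in mCherry Pos, against 4.30 and 6.65 FPKM in mCherry Neg. Both mCherry Neg values were higher (-0.42 ± 0.25 (SE, n = 2 a group), adjusted p = 0.348 in limma). Assembled transcripts held 34.8% of the Nrp2 signal. With only the transcripts named by ID its groups overlapped, with 2.18 and 2.91 FPKM in mCherry Pos, against 2.65 and 4.30 FPKM in mCherry Neg. Nrp1 and Plxnd1 were not tested: Nrp1 had 0.406 and 0.788 FPKM in mCherry Pos, against 0.676 and 1.71 FPKM in mCherry Neg, and Plxnd1, the plexin best known from blood vessels, had 0.385 and 0.334 FPKM in mCherry Pos, against 0.746 and 1.64 FPKM in mCherry Neg.

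**Figure D4:**
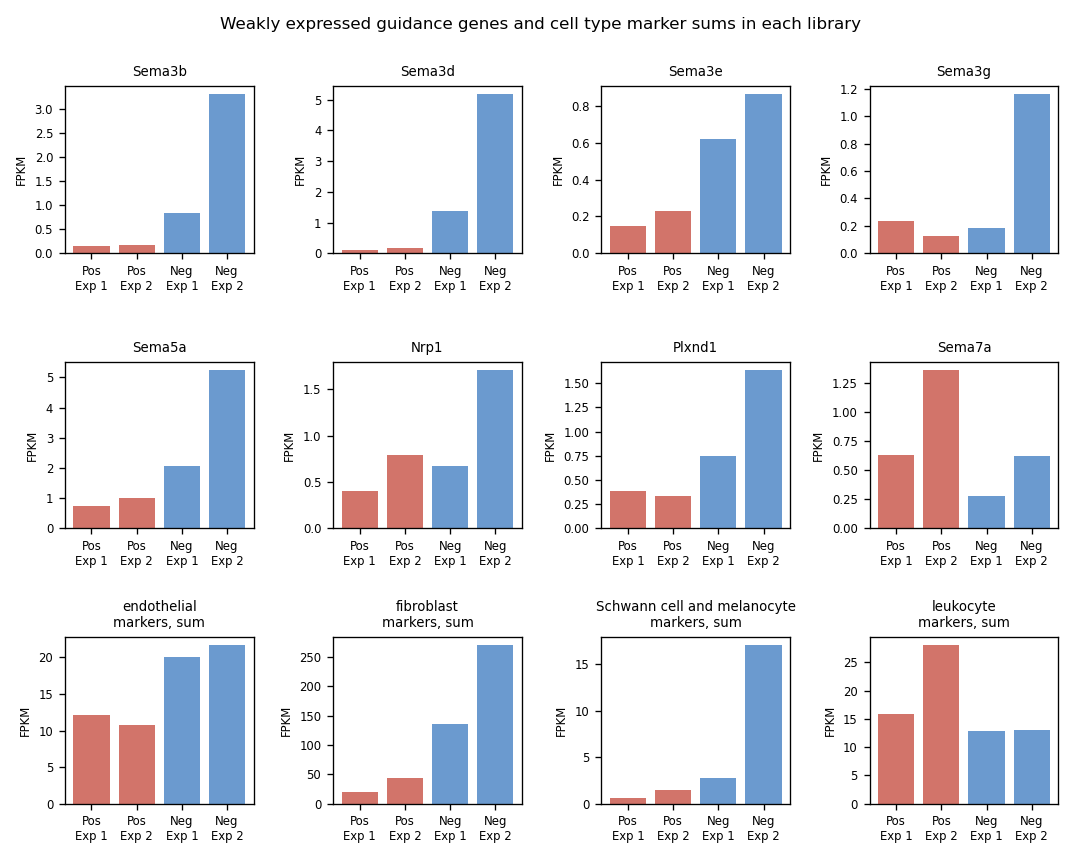
Level in FPKM of 8 weakly expressed members and of summed marker lists of other cell types, with 1 bar for each library, mCherry Pos in red and mCherry Neg in blue, and a linear axis from 0 in each panel. The mCherry Neg library of experiment 2 is the highest for Sema3b (3.30 FPKM), Sema3d (5.18 FPKM) and Plxnd1 (1.64 FPKM), and also for the Schwann cell and melanocyte sum (17.1 FPKM). Sema7a (1.37 FPKM) and the leukocyte sum (28.1 FPKM) are instead highest in the mCherry Pos library of experiment 2.

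Several weak members were highest in the mCherry Neg library of experiment 2, namely Sema3b, Sema3d, Sema3g, Sema5a, Plxnd1 and Nrp1. So were better expressed members, among them Epha1, Ephb4, Sema3c, Sema3f, Plxna1, Plxnb1 and Nrp2, so this was not particular to weak members. The weak members Epha7, Sema3a, Sema6c and Sema7a were instead highest in the mCherry Pos library of experiment 2. The share of all genes with either order was not counted. The Schwann cell and melanocyte, endothelial and fibroblast marker sums were also highest in the mCherry Neg library of experiment 2. Schwann cell and melanocyte markers summed to 0.606 and 1.41 FPKM in mCherry Pos, against 2.77 and 17.1 FPKM in mCherry Neg, where 4 of 8 reached 1 FPKM in a library and Pmel was listed at 0 in all. Endothelial markers summed to 12.1 and 10.8 FPKM in mCherry Pos, against 20.0 and 21.8 FPKM in mCherry Neg, with 9 of 12 reaching 1 FPKM in a library. Of these, Tie1 ran the other way, with 7.99 and 6.31 FPKM in mCherry Pos, against 5.11 and 3.84 FPKM in mCherry Neg. Egfl7 had 7.05 FPKM in mCherry Neg of experiment 1 and was listed at 0 elsewhere. The remaining endothelial markers were lower in both mCherry Pos libraries than in either mCherry Neg library. The leukocyte marker sum ran the other way, with 15.9 and 28.1 FPKM in mCherry Pos, against 12.91 and 13.01 FPKM in mCherry Neg. Of the 12 leukocyte markers, 5 reached 1 FPKM in a library. Among those, Cd14 and Cd68 were higher in both mCherry Pos libraries than in either mCherry Neg library, and the other 3 overlapped. Every weaker leukocyte marker overlapped too. The part of such cells in the levels of the weak members was not tested. Without the mCherry Neg library of experiment 2 the Sema3d difference was -1.07, and without the mCherry Neg library of experiment 1 it was -2.45.

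Lists of genes that act downstream of, or beside, these receptors were read from the same limma test. For Eph signalling 1 of 29 tested genes of 30 passed, against 5.07% of all genes, and it rose: Ngef, which encodes ephexin, a protein that binds EphA receptors, had 9.32 and 9.97 FPKM in mCherry Pos, against 2.84 and 3.45 FPKM in mCherry Neg. The mCherry Pos mean was 3.07 times the mCherry Neg mean (difference 1.36 ± 0.19 (SE, n = 2 a group), adjusted p = 0.0333 in limma). Like that of Sema3c, this call was lost without any 1 library: the adjusted p in limma was 0.204 and 0.244 without the mCherry Pos library of experiment 1 or 2, and 0.0774 and 0.0979 without the mCherry Neg library of experiment 1 or 2. It was also lost without a filter on low values (0.0994), with only the transcripts named by ID (0.0996) and with the most abundant transcript (0.0809), over a range of 0.000334 to 0.244 in all alternatives. The Ngef difference stayed at 1.36 without the filter and with only the transcripts named by ID. The list's median was -0.12, against -0.18 for all genes. With experiment as a block 6 of 29 passed, against 10.4% of all genes: Ngef and the focal adhesion kinase gene Ptk2 higher, and Vav3, Rasa1, Mmp14 and Tns3 lower. Ptk2 had 26.7 and 32.7 FPKM in mCherry Pos, against 11.3 and 15.5 FPKM in mCherry Neg, and Vav3, an exchange factor for Rac, had 15.04 and 19.73 FPKM in mCherry Pos, against 35.9 and 48.3 FPKM in mCherry Neg.

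For plexin and neuropilin signalling 0 of 22 tested genes of 29 passed in limma, with 7 at an unadjusted p below 0.05 and 1, Rras, with experiment as a block, against 5.07%, 25.6% and 10.4% of all genes. The 7 include Mras, which reached 1 FPKM only through mCherry Neg, so that it had to be lower in mCherry Pos. Fes reached that limit only through mCherry Pos and was not among the 7. Rras, a small GTPase on which plexins act, had 16.4 and 19.9 FPKM in mCherry Pos, against 31.3 and 32.4 FPKM in mCherry Neg (adjusted p = 0.0640, or 0.0408 with the block, in limma). Of partners that share these receptors, 0 of 11 tested genes of 18 passed in limma, 3 had an unadjusted p below 0.05 and 2, Vegfb and Itgb1, passed with the block, against the same shares of all genes. Itgb1, the most abundant partner, encodes integrin beta1 and had 123 and 157 FPKM in mCherry Pos, against 193 and 221 FPKM in mCherry Neg. The growth factor gene Vegfa, a neuropilin ligand, had 33.3 and 52.5 FPKM in mCherry Pos, against 22.6 and 21.8 FPKM in mCherry Neg, and Vegfb had 5.30 and 4.23 FPKM in mCherry Pos, against 11.2 and 8.94 FPKM in mCherry Neg. These stood in opposite order, neither passed without the block, and Vegfa did not pass with it.

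Other families of guidance molecules were read as a comparison. Of 26 Slit, Robo, netrin, Unc5, Rgm and Flrt genes and related receptors, 10 were tested and 0 passed in limma, with 7 at an unadjusted p below 0.05 and 1, Robo1, with the block, against 5.07%, 25.6% and 10.4% of all genes. The mCherry Pos libraries were both below mCherry Neg for 8 of the 10, against 42.6% of all genes, and the median difference was -0.84, against -0.34 for the 30 members and -0.18 for all genes. Robo1, a receptor of Slit ligands, had 4.23 and 5.18 FPKM in mCherry Pos, against 9.23 and 11.2 FPKM in mCherry Neg (difference -0.97 ± 0.20 (SE, n = 2 a group), adjusted p = 0.0671, or 0.0385 with the block, in limma). Flrt3, a membrane protein of the same list, was the 1 gene with both mCherry Pos values higher, with 20.4 and 24.1 FPKM in mCherry Pos, against 13.9 and 15.9 FPKM in mCherry Neg.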

How the data were processed

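RNA of sorted cells was sequenced as mRNA libraries, 2 per group. TopHat and Cufflinks were run by the authors with build mm9, per the submitters' processing notes, which name no version. The deposited files list for every transcript an FPKM value with its interval and coverage, per the file headers. Counts were not used, so no count model was run.

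Gene values are sums of FPKM over transcripts of at least 200 exonic bases, since shorter ones carried 95.1% to 98.9% of all FPKM. Of 96734 reference transcripts, 84047 were named by transcript ID through GENCODE M21 and 5138 by the gene ID in the files. The remaining reference transcripts and those assembled from the reads were placed in the gene holding at least 50% of their length on the same strand, which accounts for 11.8% to 13.3% of the kept FPKM. The distance from the centre of the Cufflinks interval to its bounds, as the median of each tested member over the libraries, was 4.25% to 38.9% of the value. It covers counting error only, and single libraries can exceed that range. Read numbers are unknown. Genes whose IDs gave no value were not analysed here.

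Genes that reached 1 FPKM in 2 or more libraries were fitted in limma 3.58.1 in R 4.3.3 (lmFit, eBayes with a trend) on log2(FPKM + 1), two-sided, with Benjamini-Hochberg adjustment over 11969 genes. No exact permutation test was made, because 2 against 2 allows no p under 0.333. Libraries of the same experiment number deviated together (Pearson r = 0.174 over all tested genes, 0.306 over 11496 genes above 0 in every library), so the number, which marks an experiment in the labels, was used as a block in an alternative. The test was tried on simulated data in 5 draws of 200 changed genes, and made at most 3 false calls. The other 15 settings are described at the end.

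The rule for members reads gene symbols alone, but these families and the gene lists were chosen with earlier results of these data known. Full values were given for members past the threshold, members at least 2-fold different the same way in both experiments and the 2 best expressed of each family, and the other genes with values were chosen after their values were seen. RefSeq promoters of GRCm38.p6 were used for sequence only. Python 3.11.15, pandas 2.3.3 and matplotlib 3.10.9 were used.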

Additional observations from a re-analysis of the deposited data

How the results depend on the processing

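The adjusted p of each member was recomputed under 15 other settings. All-gene counts (607, with 305 higher and 302 lower) were 1250 (489 and 761) with the replicate block, where 3 members were lower and list genes numbered 2 higher and 8 lower, against 1 and 0. Without a filter on low values the counts were 4 (3 and 1) with 0 members and 0 list genes higher, and with a minimum of 5 FPKM 3 members and 1 list gene were lower. Leaving out genes listed at 0 gave 1209 (466 and 743) with 6 members lower and 2 and 7 list genes. The same with the replicate block gave 3144 (918 and 2226), with 2 members higher, 11 lower, and 8 and 18 list genes. Median-of-ratios scaling gave 419 higher and 195 lower with 3 list genes higher, and family medians of 0.13 (Eph receptors), 0.049 (semaphorins) and -0.24 (plexins). Quantile normalization gave 407 higher and 252 lower with 2 list genes higher, and medians of 0.15 (Eph receptors) and -0.24 (plexins). Only the transcripts named by ID gave 71 (40 and 31), 0 members, 0 list genes higher, and medians of 0.12 (Eph receptors) and 0.20 (semaphorins). The most abundant transcript gave 62 (35 and 27), 0 members, 0 list genes higher, and a semaphorin median of -0.67. Leaving out 1 library, with the lone library of its group assumed to vary like the others, gave 3 (without the mCherry Neg library of experiment 2) to 179 genes, 2 to 124 higher and 1 to 55 lower, 0 to 1 member lower (Sema3d, without the mCherry Neg library of experiment 1), 0 list genes, and medians of -0.65 to -0.18 (plexins), -0.41 to -0.14 (semaphorins), -0.17 to 0.04 (Eph receptors), -0.25 to 0.07 (ephrins) and -0.68 to -0.15 (neuropilins). The minimum of 5 FPKM left no neuropilin to test. Signs turned for uncalled members. Under median-of-ratios scaling they were Ephb2 0.058, Efna4 0.18, Efnb2 0.11, Sema3f 0.049, Sema4b 0.16 and Sema4d 0.063, and under quantile normalization Ephb2 0.085, Efna4 0.18, Efnb2 0.13, Sema4b 0.12 and Sema4d 0.071. With only the transcripts named by ID they were Ephb2 0.11, Sema3f 0.32, Sema4b 0.35 and Sema4d 0.20, and with the most abundant transcript Plxnb2 0.12, Sema3f 0.32, Sema4b 0.35, Sema4d 0.34 and Sema6d -0.67. Leaving out 1 library gave ranges of -0.23 to 0.073 (Efnb2), -0.29 to 0.022 (Sema4d), -0.10 to 0.11 (Ephb3), -0.25 to 0.22 (Efna4), -0.10 to 0.37 (Epha1), -0.14 to 0.048 (Sema4b), -0.87 to 0.17 (Plxna1) and -0.41 to 0.10 (Sema3f). The cause was not tested. Added to the main setting, the replicate block changed no call among members other than those of Ephb4 and Sema4c. Depth limits the precision of single values: as a median over the libraries, the Cufflinks interval of a tested member extended up to 38.9% of the value to either side.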
